A study of Mus musculus with 6 samples.

Results

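Skeletal muscle stores glucose as glycogen and breaks both down to pyruvate and lactate, with fast fibres relying on this route the most. Glucose enters through transporters in the surface membrane, hexokinase traps it as glucose 6-phosphate, and a chain of cytosolic enzymes carries it to pyruvate. Several steps have a muscle-enriched isoform encoded by a gene of its own beside a widely expressed one, and muscle shifts towards the former as it matures after birth. The genes described here are 38 mouse genes of glucose and lactate transport, glycolysis, and glycogen synthesis and breakdown, taken by symbol from 54532 rows of a gene count table. All 38 symbols were found. Aldoa matched 2 Ensembl rows, and the row with almost all of the counts was used. The other (ENSMUSG00000114515) held 4 to 14 counts per library.

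Quadriceps was taken from mouse pups at postnatal day 10, kept on chow, in 3 control libraries (Pcyt2 flox/flox) and 3 libraries of the genotype given as Myf5Cre-Pcyt2 flox/flox, in which Cre driven from Myf5 acts in muscle precursors. Pcyt2 encodes the rate-limiting enzyme of the ethanolamine route to phosphatidylethanolamine, and all 6 animals carried its floxed allele. The comparison addresses what loss of Pcyt2 does to transcript levels in growing muscle. Cre is named for the second group alone, so an effect of Cre and one of Pcyt2 loss cannot be told apart. The labels do not tie pups to litters, and each p-value therefore measures the spread among these 6 libraries, which held 17775898 to 20446920 counts.

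Pcyt2 itself had 353, 277 and 277 counts in control replicates 1, 2 and 3 and 280, 328 and 272 counts in Myf5Cre-Pcyt2, and did not pass the test (log2 fold change −0.28, SE 0.11, adjusted p = 0.0944 with edgeR's quasi-likelihood test). Which exons Cre removes is not stated in the labels, so the whole-gene count does not check the deletion. All 12 fast-fibre markers searched for were present, and their summed level was 158171 to 224777 CPM in control and 93419 to 134071 CPM in Myf5Cre-Pcyt2.

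Transcripts of muscle-enriched glycolytic and glycogenolytic enzymes were lower in Myf5Cre-Pcyt2 muscle, while those of the glucose transporter genes Slc2a4 and Slc2a1 did not pass the test. The glucose transporter genes Slc2a12 and Slc2a8, which are outside the 38, fell and are described further below. Of the 38 genes, 37 passed the filter on low counts and were tested with edgeR's quasi-likelihood test across 14715 genes, with a threshold of 0.05 on the Benjamini-Hochberg adjusted p. Among these 37, 17 fell, 2 rose and 18 did not pass, where 9.59% of all tested genes fell and 9.02% rose (18.6% in either direction). Aldoc, which encodes the brain-enriched aldolase, was the untested gene, with 0.218 to 0.481 CPM. The median log2 fold change of the 37 was −0.43, against 0.00 over all tested genes. All 3 Myf5Cre-Pcyt2 libraries were below all 3 controls for 22 of the 37 and above them for 4, where 19.2% and 19.9% of all tested genes were so separated (39.0% in either direction). Together the 38 genes held 3.17%, 3.59% and 3.08% of all counts in control replicates 1, 2 and 3, and 2.58%, 2.43% and 2.52% in Myf5Cre-Pcyt2. The 2 sets of shares did not overlap.

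The size of this count varied with single libraries. Control replicate 2 had the highest control level for 15 of the 17 genes that fell, and Myf5Cre-Pcyt2 replicate 2 had the lowest level of its group for 13 of them. Fast-fibre markers were ordered alike, with control replicate 2 highest for 10 of 12 and Myf5Cre-Pcyt2 replicate 2 lowest for 9 of 12. The 17 became 10 without control replicate 2, and with Myf5Cre-Pcyt2 replicate 2 or 3 left out they became 4 and 7. Over all genes, the 1411 that were lower became 699, 424 and 641 in these fits. The 17 became 2 without both libraries numbered 2, which left 2 against 2. In that last fit no gene of the 38 rose, only 123 of all genes were lower and 114 higher, so fewer libraries and the absence of these 2 cannot be told apart, and the median of the members was −0.26. With library size alone in place of TMM, 11 fell and 3 rose, where 499 of all genes were lower and 3225 higher.

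Of the 12 fast-fibre markers 8 fell and 0 rose (median log2 fold change −0.68), and of 9 slow-fibre markers 0 fell and 2 rose (median 0.73; summed level 955.5 to 2062 CPM in control and 1961 to 2349 CPM in Myf5Cre-Pcyt2). Among markers of other cell types, 3 of 5 Schwann cell genes rose (summed level 274 to 331 CPM in control and 405 to 566 CPM in Myf5Cre-Pcyt2) and 1 of 6 fibroblast genes rose (11532 to 15171 and 16108 to 18121 CPM). Endothelial, macrophage, erythroid and adipocyte lists had summed ranges that overlapped between the groups, with 1 endothelial gene lower and 1 erythroid gene higher. Of all tested genes, 9.59% fell and 9.02% rose, so 1 call in a list of 5 or 6 is not read as a change of a cell type. The part of fibre type and of these cell types in the falls below was not tested. In whole muscle, fewer cells of a type and less RNA per cell cannot be told apart.

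**Figure D1:**
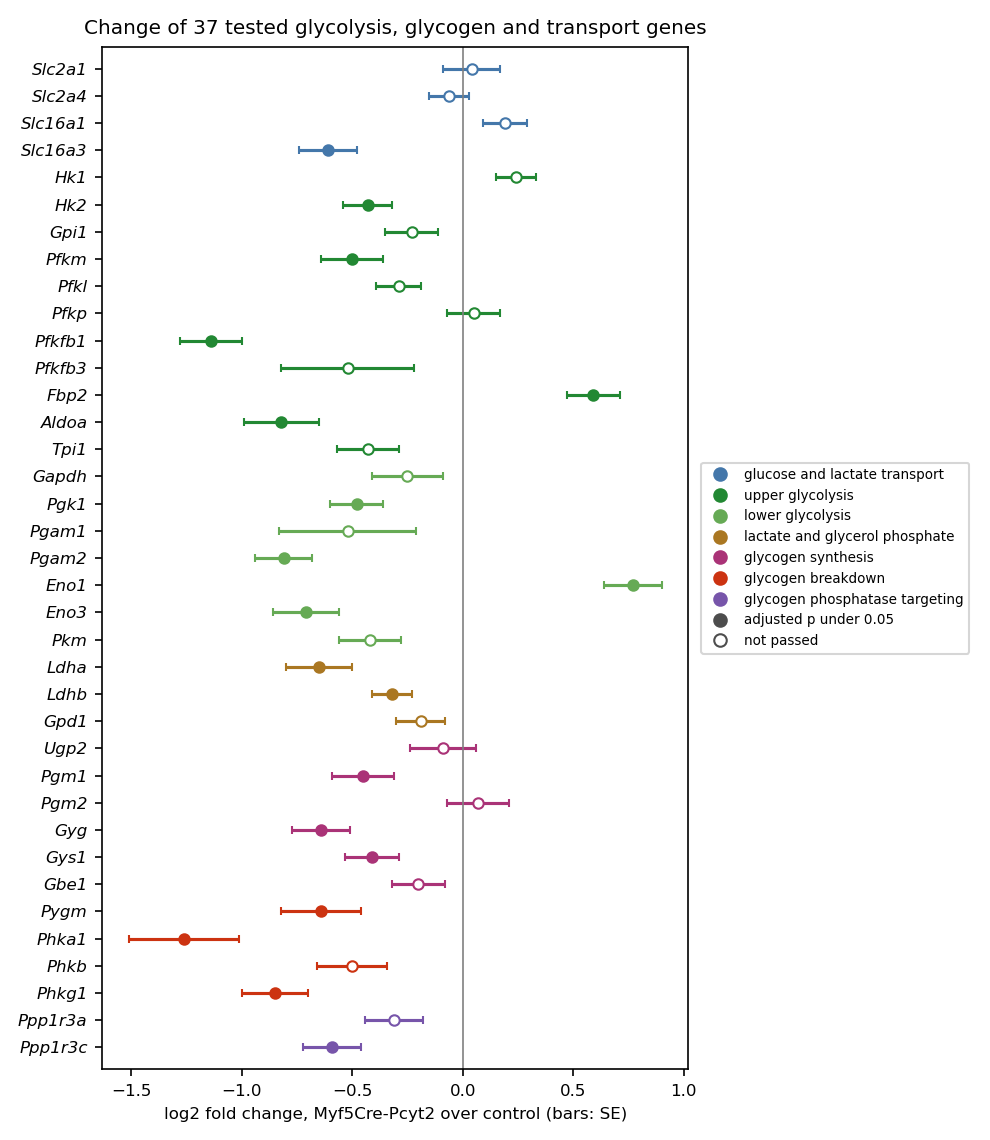
Log2 fold change of each of the 37 tested genes (Myf5Cre-Pcyt2 over control, horizontal axis, bars give SE), coloured by role and filled where the adjusted p was under 0.05. Of the filled points, 17 lie to the left of 0 and 2 (Fbp2 and Eno1) to the right.

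Of the 4 transporter genes, the lactate exporter fell and the others did not pass. Slc2a4 (ENSMUSG00000018566, GRCm38 chromosome 11, 69942539 to 69948188), which encodes the insulin-responsive glucose transporter GLUT4, stood at 249.2, 265 and 244 CPM in control replicates 1, 2 and 3 and at 257, 222 and 247 CPM in Myf5Cre-Pcyt2. The groups overlapped, and its log2 fold change was −0.06 (SE 0.09, adjusted p = 0.674). Slc2a1, the gene of the widely expressed transporter GLUT1, had 7.09 to 8.12 CPM in control and 7.62 to 8.43 CPM in Myf5Cre-Pcyt2 (log2 fold change 0.04, SE 0.13, adjusted p = 0.866). Per kb of exon, Slc2a4 stood at 72.7 CPM in control against 2.22 CPM for Slc2a1.

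Slc16a3 (chromosome 11, 120948480 to 120960868) encodes MCT4, the transporter through which glycolytic fibres release lactate. It had 255, 324 and 222 CPM in control and 182, 168 and 175 CPM in Myf5Cre-Pcyt2, with every Myf5Cre-Pcyt2 library below every control. It fell by 0.61 on the log2 scale (SE 0.13, adjusted p = 0.0115). Slc16a1, which encodes the lactate importer MCT1 of oxidative fibres, had 73.0, 57.2 and 74.8 CPM in control and 79.2, 77.6 and 77.8 CPM in Myf5Cre-Pcyt2, and its 0.19 (SE 0.10) did not pass (adjusted p = 0.214). Without Myf5Cre-Pcyt2 replicate 2 the adjusted p of Slc16a3 was 0.0568, over a range of 6.29e-07 to 0.0916 in 16 alternatives.

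Of 11 tested genes of upper glycolysis 4 fell and 1 rose, and those that fell included the muscle isoforms of hexokinase, phosphofructokinase and aldolase. Hk2, the insulin-regulated hexokinase of muscle, had 152, 192 and 178 CPM in control and 140.1, 124 and 123 CPM in Myf5Cre-Pcyt2 (log2 fold change −0.43, SE 0.11, adjusted p = 0.0196). Hk1, the widely expressed hexokinase, had 31.8, 33.8 and 28.9 CPM in control and 35.4, 35.6 and 40.4 CPM in Myf5Cre-Pcyt2. The Hk1 groups did not overlap either, in the opposite direction, but its 0.24 (SE 0.09) did not pass (adjusted p = 0.0973). Pfkm, the muscle subunit of phosphofructokinase, the main control point of glycolysis, had 2258, 2655 and 2019 CPM in control and 1726, 1456 and 1735 CPM in Myf5Cre-Pcyt2 (−0.50, SE 0.14, adjusted p = 0.0338). The liver and platelet subunit genes Pfkl and Pfkp did not pass (−0.29, SE 0.10, adjusted p = 0.0691, and 0.05, SE 0.12, adjusted p = 0.787). Pfkl had 22.7 to 26.5 CPM in control and 18.7 to 22.1 CPM in Myf5Cre-Pcyt2, and its groups did not overlap. Pfkp had 12.6 to 16.8 CPM in control and 14.1 to 16.3 CPM in Myf5Cre-Pcyt2, and its groups overlapped.

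Aldoa (ENSMUSG00000030695, chromosome 7, 126795234 to 126800751), the aldolase of muscle, was the most abundant of the 38 genes in counts. Its level was 7451, 9908 and 6981 CPM in control and 4897, 4390.0 and 4469 CPM in Myf5Cre-Pcyt2, with the lowest control well above the highest Myf5Cre-Pcyt2 library. The mean went from 8113 ± 1572 to 4585 ± 273 CPM (SD, n = 3 per group), with a log2 fold change equal to −0.82 (SE 0.17, adjusted p = 0.0103). Tpi1, the triosephosphate isomerase gene, had 1950, 2534 and 2130 CPM in control and 1741, 1483 and 1688 CPM in Myf5Cre-Pcyt2, and narrowly missed the threshold (−0.43, SE 0.14, adjusted p = 0.0511, range 0.00194 to 0.267). Gpi1, which makes fructose 6-phosphate, had overlapping groups (−0.23, SE 0.12, adjusted p = 0.184).

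Hk2 missed the threshold with the omission of control replicate 2 (adjusted p = 0.0657) or of Myf5Cre-Pcyt2 replicate 2 or 3 (0.0827 for each), over a range of 0.00082 to 0.184. Pfkm missed the threshold with the omission of control replicate 1 or 2 (0.0516 and 0.0901) or of Myf5Cre-Pcyt2 replicate 1, 2 or 3 (0.0589, 0.141 and 0.0937), over 0.00038 to 0.198. Aldoa missed the threshold with the omission of Myf5Cre-Pcyt2 replicate 2 or 3 (0.0602 and 0.0590), over 5.64e-09 to 0.0669. With library size alone Hk2 and Pfkm missed the threshold too (0.110 and 0.0623), as did Pfkm with sex as a covariate (0.0639).

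Pfkfb1 fell and Fbp2 rose. Pfkfb1 (chromosome X, 150588229 to 150643878) encodes an enzyme that makes and removes fructose 2,6-bisphosphate, the allosteric activator of phosphofructokinase. It had 10.5, 12.8 and 12.9 CPM in control and 5.87, 5.46 and 5.08 CPM in Myf5Cre-Pcyt2. No Myf5Cre-Pcyt2 library came near the lowest control, and the fitted level was 45.4% of control (log2 fold change −1.14, SE 0.14, adjusted p = 0.0017), and the gene passed in all 16 alternatives (highest adjusted p 0.0277). Pfkfb3, an inducible enzyme of the same family, varied most between controls, at 53.2, 35.8 and 18.6 CPM, and had 25.7, 18.7 and 30.6 CPM in Myf5Cre-Pcyt2. Its −0.52 (SE 0.30) did not pass (adjusted p = 0.240), but it passed without control replicate 3 (0.0262) and with no filter on low counts (5.83e-05), over a range of 5.83e-05 to 0.764. Control replicate 1, where Pfkfb3 was highest, was also the highest control for 5 of 5 adipocyte markers. All of these markers were lower in control replicate 2 than in control replicate 3 (Plin1 at 7.95 and 28.8 CPM), while Pfkfb3 was higher in control replicate 2. The part of adipocytes in the Pfkfb3 levels was not tested.

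Fbp2 (ENSMUSG00000021456, chromosome 13, 62836877 to 62858422), the muscle fructose 1,6-bisphosphatase that works against phosphofructokinase, rose. It had 107, 87.1 and 124 CPM in control, and 160.2, 160.5 and 159.7 CPM in Myf5Cre-Pcyt2. The Myf5Cre-Pcyt2 libraries were almost equal and all above the highest control. Its log2 fold change was 0.59 (SE 0.12, adjusted p = 0.00922), and of the 16 alternatives it missed the threshold in the fit of 2 against 2 without the libraries numbered 2 (0.0717, lowest 9.99e-07).

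**Figure D2:**
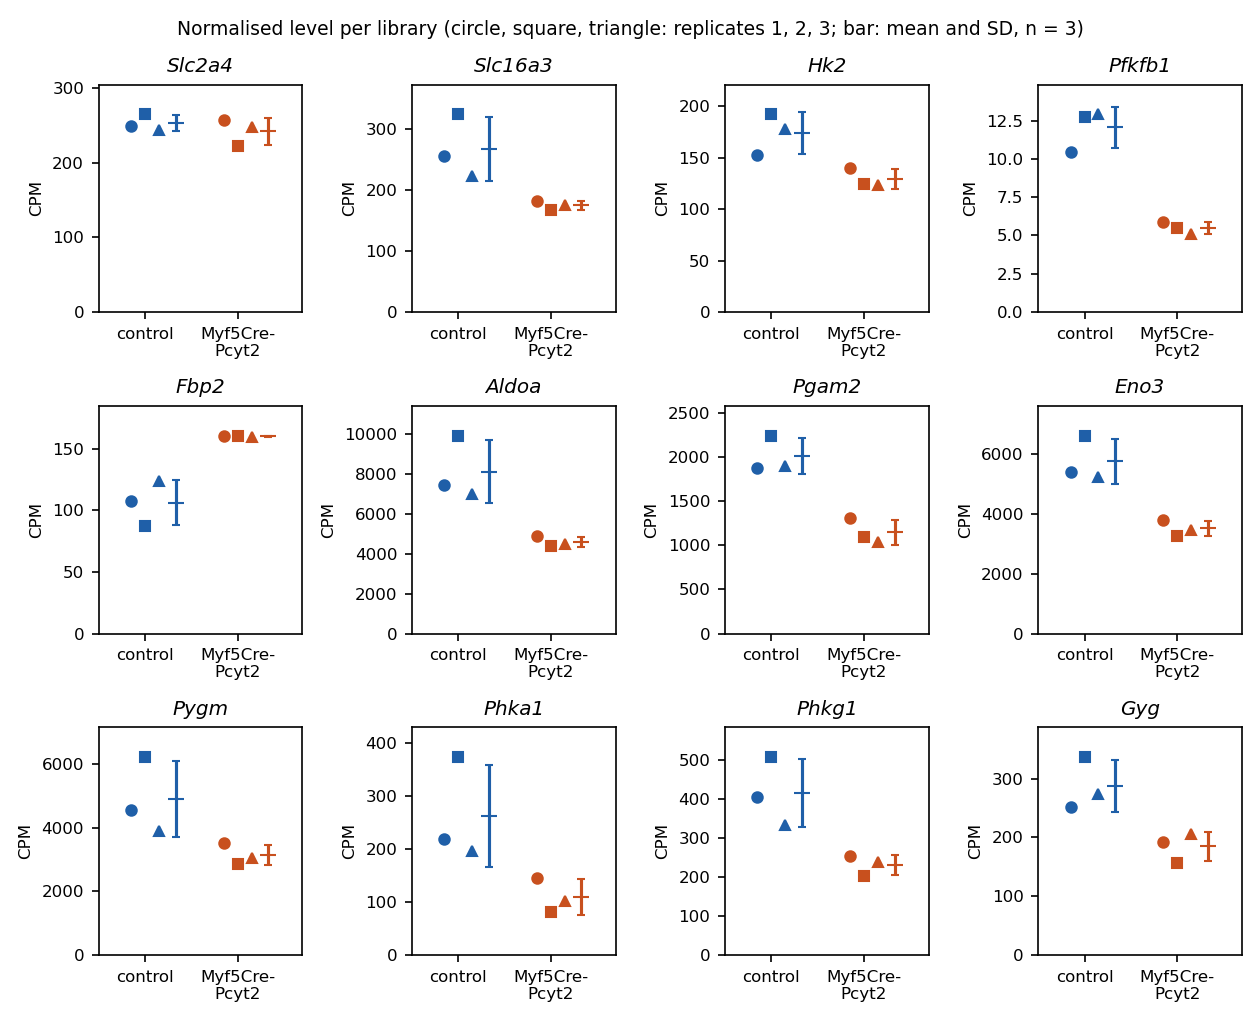
Level of 12 genes in each library in CPM (vertical axes start at 0), with controls in blue, Myf5Cre-Pcyt2 in orange, and the mean and SD of each group of 3 beside the points. Slc2a4 shows overlapping groups, Fbp2 is higher in all Myf5Cre-Pcyt2 libraries, and the other 10 genes are lower in all of them.

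Of 7 genes of lower glycolysis 3 fell and 1 rose. Pgam2 and Eno3, the muscle forms of phosphoglycerate mutase and enolase, fell, and the widely expressed enolase gene Eno1 rose. Pgam2 (ENSMUSG00000020475, chromosome 11, 5801640 to 5803733) had 1884, 2247 and 1907 CPM in control and 1314, 1096 and 1039 CPM in Myf5Cre-Pcyt2. The mean went from 2013 ± 203 to 1150 ± 145 CPM (SD, n = 3 per group), and the groups lay far apart. Its log2 fold change of −0.81 (SE 0.13, adjusted p = 0.00473) passed in all 16 alternatives, with adjusted p from 2.22e-10 to 0.0486. Pgam1, the widely expressed mutase gene, was counted at 0.870 to 1.39 CPM in control and 0.655 to 1.06 CPM in Myf5Cre-Pcyt2. It did not pass (−0.52, SE 0.31, adjusted p = 0.258). Per kb of exon, the control level was 2396 CPM for Pgam2 and 0.594 CPM for Pgam1.

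Eno3 (ENSMUSG00000060600, chromosome 11, 70657202 to 70662513) had 5383, 6595 and 5233 CPM in control and 3787, 3263 and 3455 CPM in Myf5Cre-Pcyt2, or 3299 CPM per kb of all annotated exon in control. It fell by 0.71 on the log2 scale (SE 0.15, adjusted p = 0.011). Without Myf5Cre-Pcyt2 replicate 2 or 3 the adjusted p was 0.0632 and 0.0621, over a range of 1.16e-08 to 0.0758. Eno1 (ENSMUSG00000063524, chromosome 4, 150236721 to 150248879) had 53.9, 58.9 and 52.1 CPM in control and 104, 104 and 73.6 CPM in Myf5Cre-Pcyt2 (0.77, SE 0.13, adjusted p = 0.00498), and missed the threshold only in the fit of 2 against 2 (0.0579, lowest 2.82e-11).

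Promoters are shown for both mutase and both enolase genes, where the muscle and the widely expressed form differed in level, for Fbp2, which rose among genes that fell, and for Pygm, which stands for glycogen breakdown. Each line gives the 250 bases before a RefSeq start within 100 bases of the GENCODE start, from RefSeq on GRCm38.p6, 5′ to 3′ on the strand of the gene. Capitals mark matches, on either strand, to the E-box CANNTG bound by myogenic regulators, the MCAT element CATTCC, the TATA element TATAAA and the MEF2 consensus, and matches may overlap.
Pgam2 (chr11:5803797-5804046, minus strand): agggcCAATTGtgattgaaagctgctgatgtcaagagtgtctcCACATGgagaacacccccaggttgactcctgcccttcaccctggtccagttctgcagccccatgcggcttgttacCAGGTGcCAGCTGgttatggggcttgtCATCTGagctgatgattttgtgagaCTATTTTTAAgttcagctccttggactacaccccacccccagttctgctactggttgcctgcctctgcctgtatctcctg
Pgam1 (chr19:41911621-41911870, plus strand): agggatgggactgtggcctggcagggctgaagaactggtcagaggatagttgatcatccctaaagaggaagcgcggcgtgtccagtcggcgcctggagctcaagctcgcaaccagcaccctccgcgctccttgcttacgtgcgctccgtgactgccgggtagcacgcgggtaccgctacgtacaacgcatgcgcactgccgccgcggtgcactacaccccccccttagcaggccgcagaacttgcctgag
Eno3 (chr11:70656926-70657175, plus strand): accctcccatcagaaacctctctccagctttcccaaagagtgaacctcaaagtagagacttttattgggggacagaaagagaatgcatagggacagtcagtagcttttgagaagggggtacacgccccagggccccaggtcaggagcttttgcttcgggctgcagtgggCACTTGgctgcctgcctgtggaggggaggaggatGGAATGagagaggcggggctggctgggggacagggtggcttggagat
Eno1 (chr4:150236458-150236707, plus strand): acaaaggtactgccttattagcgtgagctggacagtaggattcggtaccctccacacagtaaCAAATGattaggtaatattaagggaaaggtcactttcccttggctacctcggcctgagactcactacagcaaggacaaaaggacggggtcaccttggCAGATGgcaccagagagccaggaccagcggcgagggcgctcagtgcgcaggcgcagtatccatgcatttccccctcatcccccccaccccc
Fbp2 (chr13:62858401-62858650, minus strand): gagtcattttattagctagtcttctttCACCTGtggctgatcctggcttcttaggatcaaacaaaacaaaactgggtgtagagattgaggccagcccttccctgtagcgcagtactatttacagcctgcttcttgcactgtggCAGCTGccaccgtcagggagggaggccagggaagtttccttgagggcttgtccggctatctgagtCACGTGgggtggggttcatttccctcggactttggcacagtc
Pygm (chr19:6384158-6384407, plus strand): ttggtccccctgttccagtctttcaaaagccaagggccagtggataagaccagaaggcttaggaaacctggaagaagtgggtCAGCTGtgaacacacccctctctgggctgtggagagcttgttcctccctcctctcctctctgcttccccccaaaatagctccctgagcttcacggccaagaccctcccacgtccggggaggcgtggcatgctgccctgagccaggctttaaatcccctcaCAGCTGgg

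The Pgam2 window held 5 E-boxes and 1 MEF2 match with 1 CpG dinucleotide, and the Pgam1 window held 0 E-boxes and 22 CpG dinucleotides. Eno3, Eno1, Fbp2 and Pygm had 3, 9, 5 and 4 CpG dinucleotides, where the median of all 32851 windows of this length was 6. Eno3 held 1 E-box and 1 MCAT match, and Eno1 held 2 E-boxes. Fbp2, which rose, held 3 E-boxes, and Pygm, which fell, held 2. Of the 25 members with such a window, 18 held an E-box, against 66.2% of all windows. MCAT was in 2 of 25 (12.6% of all windows), TATA in 2 (12.4%) and MEF2 in 2 (2.92%), the last being Pgam2 and Ppp1r3a. These matches are descriptions of letters and do not show binding.

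The counts of 7 members (Gapdh, Eno1, Ldhb, Pgk1, Pkm, Ldha and Gpi1) are uncertain because other annotated genes match at least 50% of the transcript almost identically, and how multi-mapping reads were counted is not stated in the labels or processing notes. Compared with all GENCODE M21 transcripts, 94.2% of the 1273-base Gapdh transcript was matched at 95% identity or more by 81 other annotated genes, 77 of them pseudogenes. Gapdh, the glyceraldehyde phosphate dehydrogenase often used as a reference transcript, had only 12.7, 11.5 and 8.8 CPM in control and 11.0, 8.08 and 8.82 CPM in Myf5Cre-Pcyt2, while Tpi1, a step earlier, had at least 1483 CPM in every library. Its log2 fold change of −0.25 (SE 0.16) did not pass (adjusted p = 0.307). Its copies held 10471 counts over the 6 libraries against 1172 for Gapdh itself. Gapdh and copies together had 114, 144 and 110.5 CPM in control and 84.2, 78.8 and 79.0 CPM in Myf5Cre-Pcyt2, groups that did not overlap.

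Pgk1 (chromosome X), the phosphoglycerate kinase gene, was matched over 68.8% of its transcript by 3 pseudogenes, which held 14 counts in all. It had 42.0, 53.7 and 44.7 CPM in control and 36.7, 29.1 and 35.2 CPM in Myf5Cre-Pcyt2 (−0.48, SE 0.12, adjusted p = 0.0208). It missed the threshold with the omission of control replicate 2 (0.0760) or of Myf5Cre-Pcyt2 replicate 2 or 3 (0.0940 and 0.0543), over a range of 0.000243 to 0.196, and missed it with library size alone (0.0858). Eno1 was matched over 85.6% by 3 genes, among them the near-copy Eno1b, which had 114, 114 and 88 counts in control and 1, 1 and 51 counts in Myf5Cre-Pcyt2. The library with 51 Eno1b counts, Myf5Cre-Pcyt2 replicate 3, also had the lowest Eno1 level of its group. Summed over Eno1 and Eno1b, the level was 60.0, 65.5 and 57.2 CPM in control and 104, 104 and 76.0 CPM in Myf5Cre-Pcyt2, so the groups stayed apart. The part of read assignment between the copies in the Eno1 rise was not tested.

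**Figure D3:**
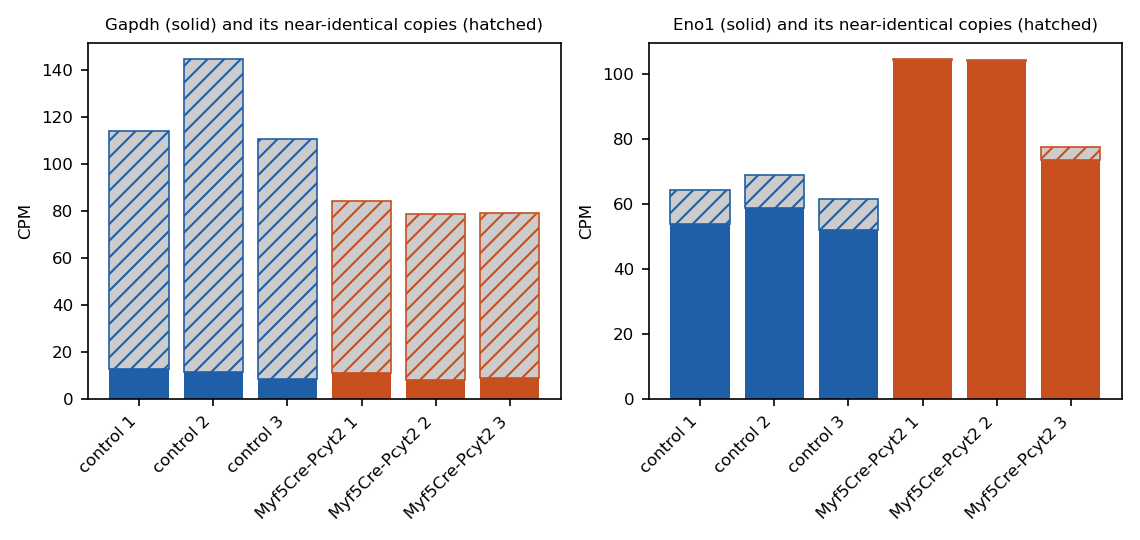
Level in CPM of Gapdh (left) and Eno1 (right) in each library as solid bars, with the summed level of their near-identical annotated copies hatched on top. Copies hold most of the Gapdh total in every library, and the copies of Eno1 are near 0 in Myf5Cre-Pcyt2 replicates 1 and 2.

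Of the 7 members with at least 50% of the transcript matched by other genes, 3 fell and 1 rose. Ldhb, Pkm, Ldha and Gpi1 were matched over 76.8%, 65.5%, 55% and 54.5%, by copies that held 0.11%, 0.54%, 1.40% and 11.9% of the member's own count. Of the 30 tested members below that share, 14 fell and 1 (Fbp2) rose, with a median of −0.44. Pkm, which encodes the pyruvate kinase of muscle, had 1583, 2098 and 1583 CPM in control and 1464, 1203 and 1271 CPM in Myf5Cre-Pcyt2. All Myf5Cre-Pcyt2 libraries were below the controls, but its −0.42 (SE 0.14) did not pass (adjusted p = 0.0665).

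At the exit to lactate both dehydrogenase genes fell. Ldha, whose product favours lactate formation in fast muscle, had 1528, 2213 and 1663 CPM in control and 1253, 1072 and 1122 CPM in Myf5Cre-Pcyt2 (−0.65, SE 0.15, adjusted p = 0.0164). Ldhb, the heart form, had 58.0, 55.9 and 66.4 CPM in control and 46.9, 48.1 and 49.7 CPM in Myf5Cre-Pcyt2 (−0.32, SE 0.09, adjusted p = 0.0329). Both had groups that did not overlap. Ldha missed the threshold with the omission of Myf5Cre-Pcyt2 replicate 2 or 3 (0.0778 and 0.0716, range 6.53e-06 to 0.0992). Ldhb missed the threshold with the omission of control replicate 3 (0.0851) or of any of the Myf5Cre-Pcyt2 libraries (0.0799, 0.107 and 0.0846, range 0.0228 to 0.509), and its highest adjusted p came with library size alone. Gpd1, which draws dihydroxyacetone phosphate off to glycerol 3-phosphate, had overlapping groups (−0.19, SE 0.11, adjusted p = 0.221).

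Of 4 genes of glycogen breakdown 3 fell, all of them counted here as muscle-enriched. Phosphorylase kinase, built from regulatory alpha and beta subunits, a catalytic gamma subunit and calmodulin, switches on glycogen phosphorylase. Phka1 (ENSMUSG00000034055, chromosome X, 102513975 to 102644246), the muscle alpha subunit, had 219.8, 374 and 197 CPM in control and 146, 81.0 and 102 CPM in Myf5Cre-Pcyt2, the largest fall of the 37 tested genes (−1.26, SE 0.25, adjusted p = 0.00922). Phkg1 (ENSMUSG00000025537, chromosome 5, 129863421 to 129898549), the muscle catalytic subunit, had 406, 507 and 332 CPM in control and 252, 203 and 237 CPM in Myf5Cre-Pcyt2 (−0.85, SE 0.15, adjusted p = 0.00576). Both missed the threshold only in the fit of 2 against 2 (0.0627 and 0.0568, lowest 5.44e-29 and 2.49e-12).

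Pygm (ENSMUSG00000032648, chromosome 19, 6384399 to 6398459), the muscle glycogen phosphorylase, had 4554, 6214 and 3894 CPM in control and 3504, 2871 and 3049 CPM in Myf5Cre-Pcyt2 (−0.64, SE 0.18, adjusted p = 0.0354). It missed the threshold with the omission of control replicate 2 (0.0902) or of any Myf5Cre-Pcyt2 library (0.0511, 0.141 and 0.129), over a range of 7.58e-05 to 0.192, and missed it with sex as a covariate (0.0568). Phkb, the beta subunit shared between tissues, had 190.4, 283 and 188.6 CPM in control and 169.7, 135 and 165 CPM in Myf5Cre-Pcyt2. Its groups did not overlap, and it missed the threshold narrowly (−0.50, SE 0.16, adjusted p = 0.0508, range 7.63e-05 to 0.352).

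Of 6 genes of glycogen synthesis 3 fell and 0 rose. Gyg, which encodes glycogenin, the self-glucosylating protein that starts a glycogen particle, had 251, 336 and 274 CPM in control and 192, 157 and 205 CPM in Myf5Cre-Pcyt2 (−0.64, SE 0.13, adjusted p = 0.0111). Gys1, the muscle glycogen synthase, had 327, 429.7 and 335 CPM in control and 278, 271 and 273 CPM in Myf5Cre-Pcyt2 (−0.41, SE 0.12, adjusted p = 0.0336). Pgm1 (ENSMUSG00000025791, chromosome 4), which interconverts glucose 1-phosphate and glucose 6-phosphate, had 999, 1318 and 996 CPM in control and 901, 728 and 794 CPM in Myf5Cre-Pcyt2 (−0.45, SE 0.14, adjusted p = 0.0465). In these genes every Myf5Cre-Pcyt2 library was below every control. The symbols Pgm1 and Pgm2 follow GENCODE M21, and Pgm2 is here ENSMUSG00000029171 on chromosome 5.

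The remaining synthesis genes had overlapping groups. Ugp2, which makes UDP-glucose, had 498 to 709 CPM in control and 484 to 653 CPM in Myf5Cre-Pcyt2 (−0.09, SE 0.15, adjusted p = 0.693). Gbe1, the branching enzyme, and Pgm2 had log2 fold changes of −0.20 (SE 0.12, adjusted p = 0.251) and 0.07 (SE 0.14, adjusted p = 0.738). Gyg missed the threshold with the omission of Myf5Cre-Pcyt2 replicate 2 (0.0528, range 2.28e-07 to 0.0916). Gys1 missed the threshold with the omission of control replicate 2 (0.0871) or of any Myf5Cre-Pcyt2 library (0.0644, 0.108 and 0.106, range 0.00284 to 0.189). Pgm1 missed the threshold with the omission of control replicate 2 (0.131) or of Myf5Cre-Pcyt2 replicate 2 or 3 (0.172 and 0.146, range 0.00229 to 0.285). With library size alone Gys1 and Pgm1 missed it as well (0.157 and 0.107), as did Pgm1 with sex as a covariate (0.0694).

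Of the 2 subunits that bring protein phosphatase 1 to glycogen, where it activates the synthase and shuts off the phosphorylase, 1 fell. Ppp1r3c (PTG) had 236, 336 and 324 CPM in control and 191, 187 and 218 CPM in Myf5Cre-Pcyt2 (−0.59, SE 0.13, adjusted p = 0.0156). It missed the threshold with the omission of control replicate 2 (0.0546) or of Myf5Cre-Pcyt2 replicate 2 (0.0713), over a range of 2.54e-06 to 0.158. Ppp1r3a, the striated muscle subunit, had 415, 514 and 428 CPM in control and 393, 303 and 394 CPM in Myf5Cre-Pcyt2. Its groups did not overlap, but its −0.31 (SE 0.13) did not pass (adjusted p = 0.113).

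The difference between muscle and other isoforms was examined within 13 isoform families. Of the 13 muscle-enriched genes 11 fell and 0 rose, with Slc2a4 and Ppp1r3a not passing (median −0.65). Pfkfb1 and Ppp1r3a were counted as muscle-enriched, against Pfkfb3 and Ppp1r3c. By CPM per kb of exon they were the minor form on average in control, at 41.3% and 37.4% of their pairs. The 13 families leave out fructose 1,6-bisphosphatase, whose muscle gene Fbp2 rose (0.59) and whose liver gene Fbp1, at 0.106 to 0.611 CPM, did not pass (0.83, SE 0.53, adjusted p = 0.294). Of the 14 tested genes of the other isoforms, which include the non-members Pygb, Pygl, Phka2 and Phkg2, 2 fell (Ldhb and Ppp1r3c), 1 rose (Eno1) and 11 did not pass (median −0.02). Of all tested genes, 9.59% fell and 9.02% rose. The summed level of the muscle-enriched genes was 23311 to 32021 CPM in control and 15256 to 17856 CPM in Myf5Cre-Pcyt2. That of the others was 624 to 677 CPM in control and 579 to 600.0 CPM in Myf5Cre-Pcyt2.

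The share of the muscle isoform in its family, from CPM per kb of exon, does not depend on library scaling. It was lower on average in Myf5Cre-Pcyt2 in 12 of 13 families, and in 6 of these the groups did not overlap. For levels of single genes, 19.2% of all tested genes were so separated and lower, and 39.0% in either direction. No such percentage over all genes was computed for shares. The Slc16a3 share of the lactate transporters was 74.4%, 82.5% and 71.2% in the controls, against 65.6%, 64.2% and 65.2% in Myf5Cre-Pcyt2. The Hk2 share of the hexokinases was 87.2%, 89.0% and 89.8% in the controls, against 85.0%, 83.3% and 81.3% in Myf5Cre-Pcyt2. The Phka1 share of the alpha subunits went from 94.9 ± 1.64% to 87.1 ± 3.12% and the Phkg1 share of the gamma subunits from 96.1 ± 0.665% to 93.6 ± 0.85% (SD, n = 3 per group).

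The Pygm share of the phosphorylases went from 99.5 ± 0.142% to 99.3 ± 0.148%, and the Eno3 share of the enolases, which carries the limit on Eno1, from 99.7 ± 0.0196% to 99.1 ± 0.169% (SD, n = 3 per group). In these 6 families an exact permutation test, two-sided, gave p = 0.1, the smallest p that 3 against 3 libraries allow, and 0.217 adjusted over the 13 families. The share of Slc2a4 in the pair of Slc2a4 and Slc2a1, 97.0 ± 0.223% and 96.8 ± 0.389% (SD, n = 3 per group), overlapped (exact permutation test, p = 0.6). Ppp1r3a was the exception in direction, with a mean share of 37.4 ± 3.33% in control and 41.6 ± 2.89% in Myf5Cre-Pcyt2 and overlapping groups (exact permutation test, p = 0.2, n = 3 per group). On the log2 scale, the mean ratio of muscle to other isoform differed between Myf5Cre-Pcyt2 and control by −1.47 for Phka1, −1.46 for Eno3, −0.80 for Slc16a3, −0.79 for Pygm, −0.76 for Phkg1 and −0.67 for Hk2.

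**Figure D4:**
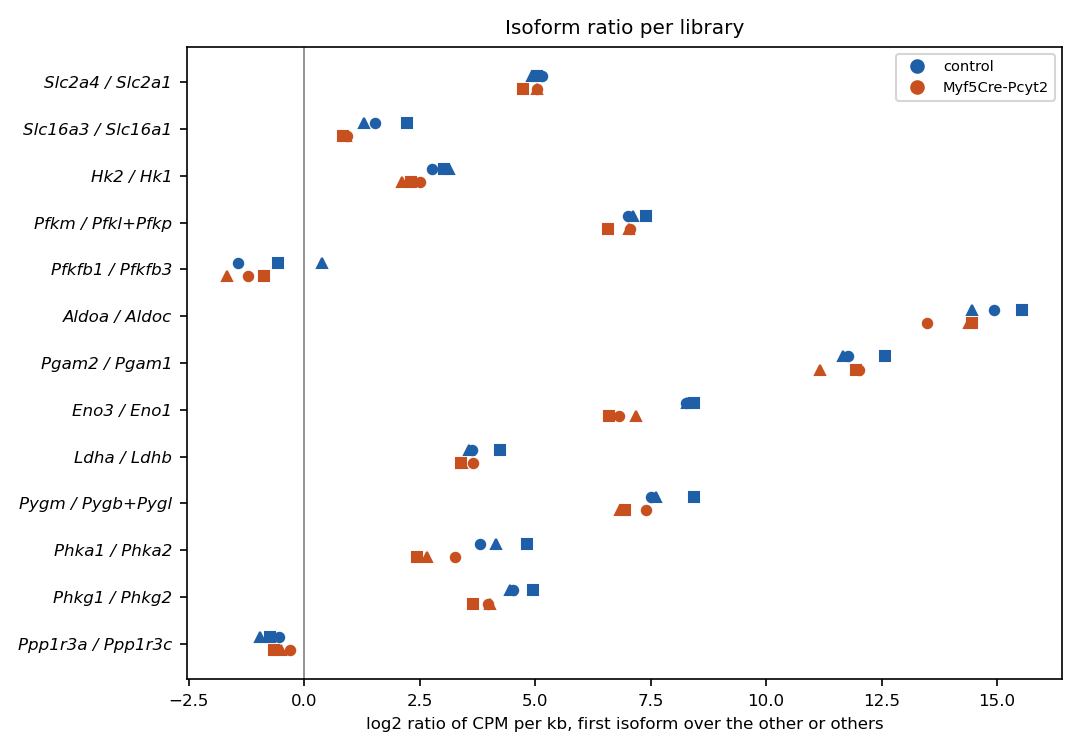
Log2 ratio of the muscle-enriched isoform over the other isoform or isoforms (CPM per kb of exon, horizontal axis) in each library for 13 families, with controls in blue above and Myf5Cre-Pcyt2 in orange below. Orange points lie to the left of all blue points for Slc16a3, Hk2, Eno3, Pygm, Phka1 and Phkg1.

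Further genes of the same pathways were also examined. Of 38 tested genes on a list of further isoforms, side branches and regulators of these enzymes, 10 fell, 0 rose and 28 did not pass (median −0.17), where 9.59% of all tested genes fell. Bpgm, which makes 2,3-bisphosphoglycerate, fell from 89.0 ± 5.84 to 52.1 ± 6.05 CPM (−0.77, SE 0.10, adjusted p = 0.00221), and Ldhd, the mitochondrial D-lactate dehydrogenase, from 18.6 ± 3.19 to 7.91 ± 1.74 CPM (−1.22, SE 0.17, adjusted p = 0.00279). Both passed in all 16 alternatives. Pfkfb4, a further fructose 2,6-bisphosphate enzyme, fell by 0.59, Pgm2l1, a glucose 1,6-bisphosphate synthase, by 0.72, Tigar, a fructose 2,6-bisphosphatase, by 0.68, and G6pc3, a glucose 6-phosphatase, by 0.38 on the log2 scale (adjusted p = 0.00449, 0.00997, 0.0100 and 0.0178). A further 3 that fell, named after their values were seen, were Gpd2, Slc2a12 and Slc2a8 (−0.81, −0.44 and −0.51). Slc2a12 and Slc2a8 encode further glucose transporters, and their groups did not overlap. The Gpd2 groups overlapped, with 155 CPM in control replicate 3 and 157 CPM in Myf5Cre-Pcyt2 replicate 1. Gpd2, Slc2a12 and Slc2a8 missed the threshold with the omission of Myf5Cre-Pcyt2 replicate 2 (adjusted p = 0.105, 0.111 and 0.132) or of control replicate 2 (0.0844, 0.0895 and 0.123).

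Without Myf5Cre-Pcyt2 replicate 2, Pgm2l1, Tigar and G6pc3 did not pass (adjusted p = 0.0562, 0.0545 and 0.0871, over ranges of 4.26e-09 to 0.0884, 7.22e-08 to 0.0829 and 0.00754 to 0.216). G6pc3 also missed the threshold with the omission of control replicate 2 (0.0611) or of Myf5Cre-Pcyt2 replicate 3 (0.0735). Without TMM, on library size alone, G6pc3, Slc2a12 and Slc2a8 missed it (0.216, 0.186 and 0.179).

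Of 29 upstream regulators, 6 fell, 3 rose and 20 did not pass (median −0.02), where 9.59% of all tested genes fell and 9.02% rose. Prkag3, the AMP-activated kinase subunit typical of glycolytic muscle, fell from 144 ± 31.5 to 68.5 ± 18.7 CPM (−1.08, SE 0.19, adjusted p = 0.00615), and the catalytic subunit gene Prkaa2 from 389.7 ± 51.1 to 270.6 ± 40.0 CPM (−0.53, SE 0.13, adjusted p = 0.0215). Mlxipl, which encodes the glucose-responsive factor ChREBP, fell by 0.60 on the log2 scale, Klf15, a metabolic regulator of muscle, by 0.79, and Esrra, a nuclear receptor of energy metabolism genes, by 0.36 (adjusted p = 0.00828, 0.00769 and 0.0163). Insr, the insulin receptor gene, rose from 112 ± 5.46 to 148 ± 8.05 CPM (0.40, SE 0.09, adjusted p = 0.0119). Akt1 and Arrdc4, which rose (0.34 and 0.37), and Epas1, which fell (−0.42), were named after their values were seen, and none of them passed without Myf5Cre-Pcyt2 replicate 2 (adjusted p = 0.0820, 0.107 and 0.0796).

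Prkaa2 and Esrra missed the threshold with the omission of control replicate 2 (0.0693 and 0.0569) or of Myf5Cre-Pcyt2 replicate 2 (0.0903 and 0.0800), and Prkaa2 missed the threshold with the omission of Myf5Cre-Pcyt2 replicate 3 (0.0696), over ranges of 4.66e-05 to 0.169 and 0.00425 to 0.225. With library size alone Esrra and Epas1 missed it (0.225 and 0.207). Insr missed the threshold with the omission of Myf5Cre-Pcyt2 replicate 2 or 3 (0.0545 and 0.0526, range 0.000845 to 0.0914). The other genes of the insulin signal on this list did not pass, with log2 fold changes of −0.14 for Irs1, 0.38 for Irs2, 0.01 for Akt2, −0.07 for Tbc1d1, −0.01 for Tbc1d4 and −0.02 for Rac1. Irs2 (adjusted p = 0.0651) passed with library size alone (0.0182), with no filter on low counts (0.0114) and without control replicate 1 (0.0207). These 6 were named after their values were seen.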

How the data were processed

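RNA from quadriceps of 6 pups was sequenced by the authors. The deposited file holds whole-number counts per Ensembl gene, and the submitters' processing notes name GRCm38/mm10, Bowtie2 2.3.4.1, Subread 1.6.2 with featureCounts, and Trim Galore 0.5.0. For annotation release, strand setting and multi-mapping rule, nothing is given in the sources used here. Symbols, positions and exon lengths came from GENCODE M21 (54409 of 54532 rows).

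Genes were filtered with filterByExpr, scaled with TMM and compared with the quasi-likelihood test of edgeR 4.0.16 (R 4.3.3), two-sided, with Benjamini-Hochberg adjustment over 14715 genes. Errors of fold changes are SE, of levels SD. The SE was the absolute log2 fold change divided by the square root of the quasi-likelihood F statistic. Isoform shares used an exact permutation test. Copies were sought with blastn 2.17.0 over at least 100 bases at 95% identity. Alternatives were other scalings, DESeq2 1.42.0, limma-voom (limma 3.58.1), other filters, a replicate block, a sex covariate (replicate 3 of each group was male by Xist and Y-linked counts) and leaving out libraries. Leaving out both libraries numbered 2, leaving out genes with copies, and transcript length for shares were added after seeing the data. No 2 libraries of a group agreed within sampling noise (chi-square per degree of freedom at least 12.0). On simulated counts of 14303 genes, recovery was 41.8% at 1.5-fold, 79.1% at 2-fold and 93.9% at 4-fold, and 18 of 161 calls were unchanged genes. The members and lists were chosen with earlier results of these data known. Library values are given for members that passed and for members that are the other isoform of such a member. Of the latter, Pfkl, Pfkp, Pgam1 and Aldoc are given by range. Up to 6 genes with the smallest p were named per further list. The values of 1 gene on a further list are not reported here.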

Additional observations from a re-analysis of the deposited data

How the results depend on the processing

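The 17 members that fell became 11 with library size alone, 8 with a replicate block and 2 without both libraries numbered 2, and ranged from 4 to 18 when each library was left out in turn; the other scalings, tests, filters, the sex covariate and leaving out members in copies gave 14 to 22. Over all genes, the 1411 that were lower became 499 with library size alone, 866 with the block and 123 without both libraries numbered 2. Their number ran from 424 to 1448 when each library was left out. The 2 members that rose became 0 without both libraries numbered 2 and 1 without members in copies. Library size alone moved the median of all genes by 0.21 and the share of lower genes among all calls from 51.5% to 13.4%. Deviations of same-numbered libraries from their group means correlated at −0.11, −0.17 and 0.02. With 3 libraries per group, these values cannot decide whether same-numbered libraries share a litter or batch. Same-numbered libraries were of the same sex. The replicate block took the adjusted p to 0.0535 for Hk2, 0.135 for Pfkm, 0.0669 for Aldoa, 0.0758 for Eno3, 0.0607 for Ldha, 0.0765 for Ldhb, 0.130 for Pgm1, 0.0811 for Gys1 and 0.124 for Pygm. With library size alone Slc2a4, Gpd1, Ugp2 and Gbe1 turned to 0.15, 0.02, 0.11 and 0.00, and without both libraries numbered 2 Slc2a4, Ugp2 and Pgm2 turned to 0.03, 0.03 and −0.09. When each library was left out in turn, the log2 fold change ran from −0.02 to 0.07 for Slc2a1, −0.05 to 0.16 for Pfkp, −0.22 to 0.02 for Ugp2 and −0.04 to 0.15 for Pgm2. None of these genes had passed. The cause was not tested. The difference in share ranged from −0.334 to 0.00885 points for Slc2a4 and from −0.00904 to 0.000577 points for Pgam2 when each library was left out. Depth limits Pgam1 and Aldoc, whose counts are low, and the pseudogene that matches 43.1% of the Pgam1 transcript limits Pgam1 too.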
